A study of Mus musculus with 18 samples.

Results

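The genes described here are 9 immediate-early genes, Egr1, Zfp36, Ier3, Fos, Jun, Junb, Atf3, Ier2 and Ier5, and the kinase gene Rps6ka5, which encodes MSK1. They are 10 of the 14411 genes measured in mouse ESCs, EpiLCs or both. They were picked by name after results with Δ9-tetrahydrocannabinol (Δ9-THC) were known, among them the low Egr1 and Zfp36 of exposed EpiLCs. Their differences with Δ9-THC in EpiLCs, and that of Rps6ka5 in ESCs, are therefore given as descriptions. Calls and the interaction printed below that use these values do not stand apart from the choice. All 10 genes had values in ESCs and 9 in EpiLCs. Fos has no row in the EpiLC table, from which the authors had removed genes with low counts, and its level in EpiLCs was not analysed here.

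Immediate-early genes are transcribed within minutes of a growth factor, cytokine or stress signal, without new protein synthesis, and their mRNAs are mostly short-lived. The signal reaches them through the ERK and p38 kinase cascades. ERK phosphorylates ternary complex factors that sit with SRF on CArG boxes, and MSK1, a nuclear kinase downstream of both cascades, phosphorylates CREB, ATF1 and histone H3 at these genes. In pluripotent stem cells, FGF acting through MEK and ERK drives the exit from the naive state, and naive cultures are kept with an inhibitor of MEK.

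RNA was sequenced from 12 libraries in 4 groups, with 3 biological replicates each: ESCs with the vehicle, ESCs with 100 nM Δ9-THC, EpiLCs with the vehicle and EpiLCs with 100 nM Δ9-THC. The vehicle was ethanol. The cells were mouse ESC clones with Blimp1::mVenus and Stella::ECFP reporters, kept with LIF, a GSK3 inhibitor and a MEK inhibitor, and the EpiLCs were made from them with activin A and bFGF. EpiLCs exposed to Δ9-THC came from ESCs that had been exposed too. The study kept a female and a male clone. The paper says in general that its ESC data came from the female one, and the labels do not name the clone of a library.

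The cell types matched their labels. Nanog, a naive pluripotency factor, had a mean of 1015 CPM (counts scaled to library size, with TMM factors) in vehicle ESCs and 187 CPM in vehicle EpiLCs, and Dnmt3b, a de novo DNA methyltransferase of the primed state, 76.9 CPM and 932 CPM. Of 14 markers of other lineages, 6 had a row in ESCs and 8 in EpiLCs, and together they held 24.4 to 31.0 CPM and 37.9 to 41.7 CPM per library. Sox17, Gata6, Cdx2, Col3a1 and Acta2 have no row in either table. Library totals ran from 23427551 to 32096698 counts.

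The libraries of the tables were not independent. The authors had adjusted the counts of each cell type with ComBat-seq, and in the adjusted counts a vehicle library and the exposed library with the same replicate number deviated from their group means in opposite directions. The correlation of these deviations was -0.987 to -0.977 over 13104 genes in ESCs and -0.985 to -0.979 over 13717 genes in EpiLCs, against 0.223 to 0.695 for libraries with different numbers. Zfp36 in ESCs shows it: the average of the 2 libraries with the same number varied by 0.143% (coefficient of variation over the 3 numbers), while the 3 vehicle libraries varied by 4.86%. The cause was not tested. SDs, SEs and p-values from these tables therefore describe adjusted counts and not the variation between cultures.

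**Figure D1:**
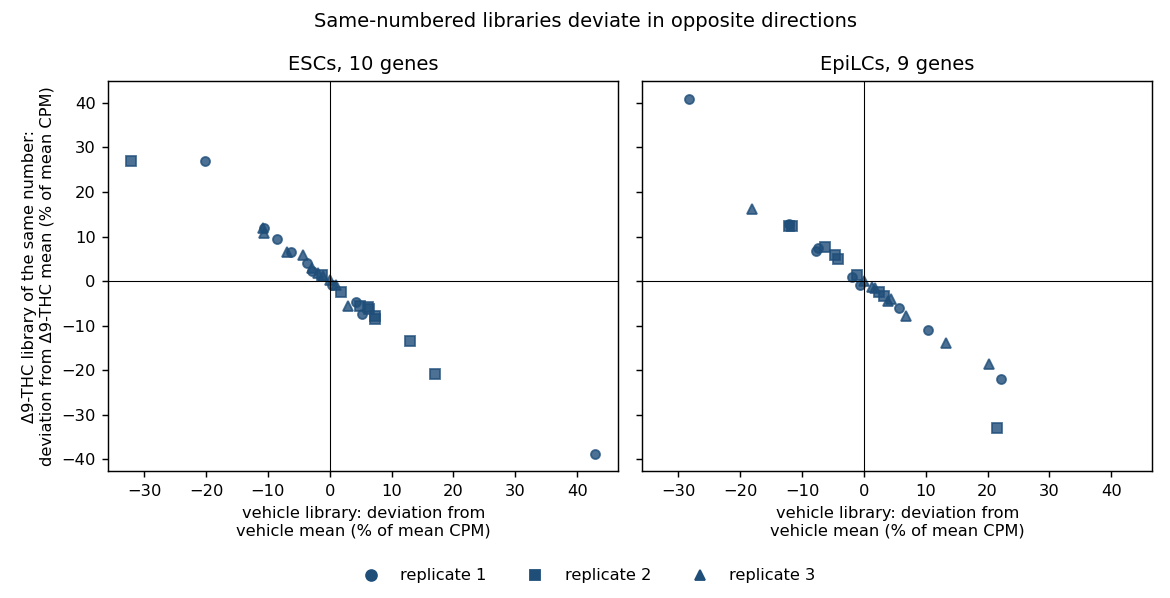
Deviation of each vehicle library from the vehicle mean (x axis, % of the mean CPM) against the deviation of the exposed library with the same number from the exposed mean (y axis, % of the mean CPM), for 10 genes in ESCs and 9 in EpiLCs; symbols give the replicate number. The points lie along a falling line in both cell types.

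The sequence before the transcription start was read for 8 of the 10 genes, those with an entry among the RefSeq promoters of GRCm38.p6 used here. Egr1 and Ier2 are the other 2. Each window ran from 250 bases before the start to 50 after it, 300 bases in all. Motifs were searched on both strands: the CArG box of SRF (CC, 6 A or T, GG), the CREB site TGACGTCA and its first part TGACG, the AP-1 site TGACTCA, the EGR sites GCGGGGGCG and GCGTGGGCG, and TATAAA. The full CREB site contains TGACG, and the A and T run of a CArG box can hold TATAAA. The 150 bases just before the start are printed for Zfp36 and Ier3, which were lower in exposed EpiLCs, and for Fos and Rps6ka5, with every motif found in capitals:
Zfp36 (chr7:28379229-28379378, minus strand): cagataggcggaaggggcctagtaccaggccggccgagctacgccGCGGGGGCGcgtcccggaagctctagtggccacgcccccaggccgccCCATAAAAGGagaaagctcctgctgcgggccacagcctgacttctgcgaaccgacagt
Ier3 (chr17:35821563-35821712, plus strand): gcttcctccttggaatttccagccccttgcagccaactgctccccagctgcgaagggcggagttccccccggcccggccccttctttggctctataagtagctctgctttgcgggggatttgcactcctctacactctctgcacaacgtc
Fos (chr12:85473740-85473889, plus strand): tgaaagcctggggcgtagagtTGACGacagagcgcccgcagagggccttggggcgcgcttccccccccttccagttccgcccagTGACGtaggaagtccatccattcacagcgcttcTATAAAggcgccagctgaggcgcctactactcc
Rps6ka5 (chr12:100725121-100725270, minus strand): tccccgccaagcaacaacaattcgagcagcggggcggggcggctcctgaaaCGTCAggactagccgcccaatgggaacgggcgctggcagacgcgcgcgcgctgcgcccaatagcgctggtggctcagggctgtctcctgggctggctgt

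The Zfp36 window held a CArG box, CCATAAAAGG, beginning at position -58 from the start, and the EGR site GCGGGGGCG at -105. A CArG box was in 1.63% of the 32851 promoters of the table, this EGR site in 2.91%, and both together in 0.0487%. Zfp36 was the 1 member of the 8 with either in its window. Sequence outside the windows was not searched, and Egr1 and Ier2 had no window. The count therefore does not show that any other gene lacks a CArG box or an EGR site. Fos held TGACG at -129 and at -66 and TATAAA at -33. Junb held TGACG at -106 and TATAAA at 1, and TATAAA was in 2 of the 8 windows and in 13.6% of all promoters. Atf3 and Rps6ka5 held TGACG on the other strand, where it reads CGTCA, at -7 and -99. TGACG was thus in 4 of the 8 windows and in 20.8% of all promoters. The windows of Ier3, Jun and Ier5 held none of the motifs. A match is a run of letters, and no binding was measured here.

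The mRNAs differ in the elements through which ZFP36 acts. ZFP36, also called tristetraprolin, binds AU-rich elements in 3′ UTRs and speeds the decay of the mRNA. In the GENCODE M21 transcripts, the nonamer TTATTTATT was in the 3′ UTR of Zfp36 itself and of Fos, and in 8.04% of 12960 measured genes. It is printed here in capitals with 10 bases on each side:
Zfp36: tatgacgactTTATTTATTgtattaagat
Fos: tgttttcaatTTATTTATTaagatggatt

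The shorter pentamer ATTTA was densest in Ier3, at 8.16 per kb of 3′ UTR. Fos had 4.91, Junb 4.12 and Zfp36 3.88 per kb, Ier2 had 0, and the median over all genes was 1.27 per kb. Jun, Junb, Ier2 and Ier5 are encoded by 1 exon, as are 2.38% of the genes, while Rps6ka5 has 17 exons and spans chromosome 12 from 100548439 to 100726983. These features were looked up after the expression values were seen.

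In vehicle cells, the order of the genes by level per length differed between ESCs and EpiLCs. Levels per length are CPM per kb of exon, where the length counts every base that lies in any annotated exon of the gene. The order depends on this length. Ier2, a nuclear protein induced by growth factors, was the highest in both, at 69.5 ± 1.75 CPM per kb (SD, n = 3) in ESCs and 65.1 ± 11.2 CPM per kb in EpiLCs. Rps6ka5 was the lowest, at 0.828 ± 0.0765 CPM per kb and 1.34 ± 0.0810 CPM per kb.

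Between these, ESCs held Egr1 (5.84 CPM per kb), Atf3 (5.10), Ier3 (3.75), Junb (3.41), Zfp36 (2.99), Fos (2.95), Jun (2.15) and Ier5 (1.46). The libraries of neighbours in that order overlapped for Egr1 and Atf3, Atf3 and Ier3, Ier3 and Junb, and Zfp36 and Fos. In EpiLCs, Ier3 came next to Ier2 at 26.3 CPM per kb, followed by Atf3 (6.31), Zfp36 (5.86), Egr1 (4.26), Jun (3.16), Ier5 (2.40) and Junb (2.38), and the libraries of Atf3 and Zfp36, Egr1 and Jun, and Ier5 and Junb overlapped. With Δ9-THC, Egr1 went from the fifth place of the 9 genes of EpiLCs to the last, at 1.17 ± 0.438 CPM per kb, with Rps6ka5 next above it at 1.53 CPM per kb. The exposed libraries of these 2 genes overlapped, from 0.781 to 1.64 for Egr1 and from 1.43 to 1.64 CPM per kb for Rps6ka5. By CPM, Egr1 was not the last in exposed EpiLCs, with a mean of 5.23 CPM beside 4.39 CPM for Junb.

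**Figure D2:**
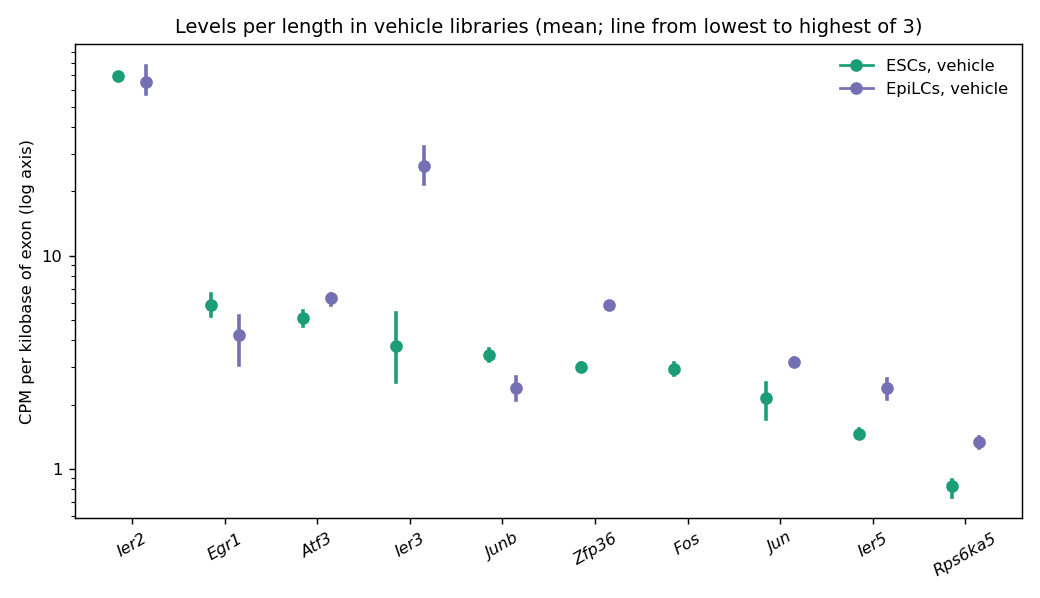
Level per length of each gene in vehicle libraries (y axis, CPM per kb of exon, log axis) in ESCs and EpiLCs; points are means and lines run from the lowest to the highest of 3 libraries. Ier2 is the highest and Rps6ka5 the lowest in both cell types, and Ier3 differs most between them. Fos has no EpiLC value.

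Ier3 was the gene whose level differed most between the cell types. Its vehicle mean was 7.02 times as high in EpiLCs as in ESCs on the CPM scale. Zfp36 was 1.96 times, Ier5 1.64 times, Rps6ka5 1.61 times, Jun 1.47 times and Atf3 1.24 times as high in EpiLCs, in each case with no overlap between the libraries. Egr1 (0.729 times) and Junb (0.696 times) were lower in EpiLCs without overlap, and the libraries of Ier2 (0.936 times) overlapped. The share of all genes without overlap between the cell types was not determined, so the lack of overlap is not a result about these genes. The tables of the cell types were adjusted separately, so these ratios carry any difference between the adjustments and were not tested. ERK output genes differed too: Dusp6, a phosphatase of ERK, had 12.8 CPM in vehicle ESCs and 119 CPM in vehicle EpiLCs, and their part in the levels of the immediate-early genes was not tested.

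Egr1, a zinc-finger transcription factor (ENSMUSG00000038418), had 13.7, 23.2 and 20.4 CPM in the vehicle EpiLCs of replicates 1, 2 and 3, and 7.37, 3.50 and 4.82 CPM in the exposed ones. Every exposed library lay below every vehicle library, and replicate 1 was the lowest vehicle library and the highest exposed one. In these bulk samples, fewer cells with the mRNA and less mRNA per cell cannot be told apart. The means of 19.1 ± 4.88 and 5.23 ± 1.96 CPM (SD, n = 3) differed 3.65-fold, a log2(fold-change) of -1.87 (SE 0.30). This was the lowest log2(fold-change) of the 13717 genes of EpiLCs. The differences within replicate numbers were -0.89, -2.70 and -2.06 on the log2 scale, and leaving out 1 library at a time gave log2(fold-change) values from -2.20 to -1.66. The raw adjusted counts behind these values were 399 to 739 per vehicle library and 89 to 189 per exposed library.

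In ESCs, Egr1 had 23.4, 29.6 and 25.7 CPM with the vehicle and 29.1, 22.5 and 26.5 CPM with Δ9-THC. The groups overlapped over nearly their whole range, and the log2(fold-change) was -0.012 (SE 0.12; edgeR quasi-likelihood test, Benjamini-Hochberg adjusted p = 0.963).

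Zfp36 (ENSMUSG00000044786, chromosome 7 from 28376784 to 28380253) had 19.9, 20.8 and 20.3 CPM in vehicle EpiLCs and 12.5, 12.1 and 12.4 CPM in exposed EpiLCs. In the adjusted counts, the libraries of each group lay close together and the groups were far apart. This closeness does not describe the variation between cultures. The means of 20.3 ± 0.443 and 12.4 ± 0.217 CPM differed 1.65-fold, with a log2(fold-change) of -0.72 (SE 0.062), and 22 of the 13717 genes had a value as low or lower. In ESCs, Zfp36 had 10.02, 10.9 and 10.1 CPM with the vehicle and 10.5, 9.54 and 10.4 CPM with Δ9-THC. The groups overlapped there, with a log2(fold-change) of -0.034 (SE 0.064; edgeR, adjusted p = 0.768). Counting ignored strand, and 3.6% of the exonic length of Zfp36 is shared with Gm44710.

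Ier3, a regulator of apoptosis induced by stress and growth factors (ENSMUSG00000003541, chromosome 17 from 35821684 to 35822923), had 36.4, 28.4 and 24.4 CPM in vehicle EpiLCs and 12.1, 16.4 and 18.0 CPM in exposed EpiLCs. All exposed libraries were below all vehicle libraries. The means were 29.8 ± 6.12 and 15.5 ± 3.04 CPM, and the log2(fold-change) of -0.94 (SE 0.19) was the lowest in EpiLCs after that of Egr1. The 3 numbers differed in size, at -1.58, -0.79 and -0.44 on the log2 scale. In ESCs, Ier3 had 6.06, 2.88 and 3.78 CPM with the vehicle and 3.10, 6.42 and 5.66 CPM with Δ9-THC. It was lower with Δ9-THC in replicate 1 and higher in replicates 2 and 3, and the log2(fold-change) was 0.25 (SE 0.34; edgeR, adjusted p = 0.670).

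**Figure D3:**
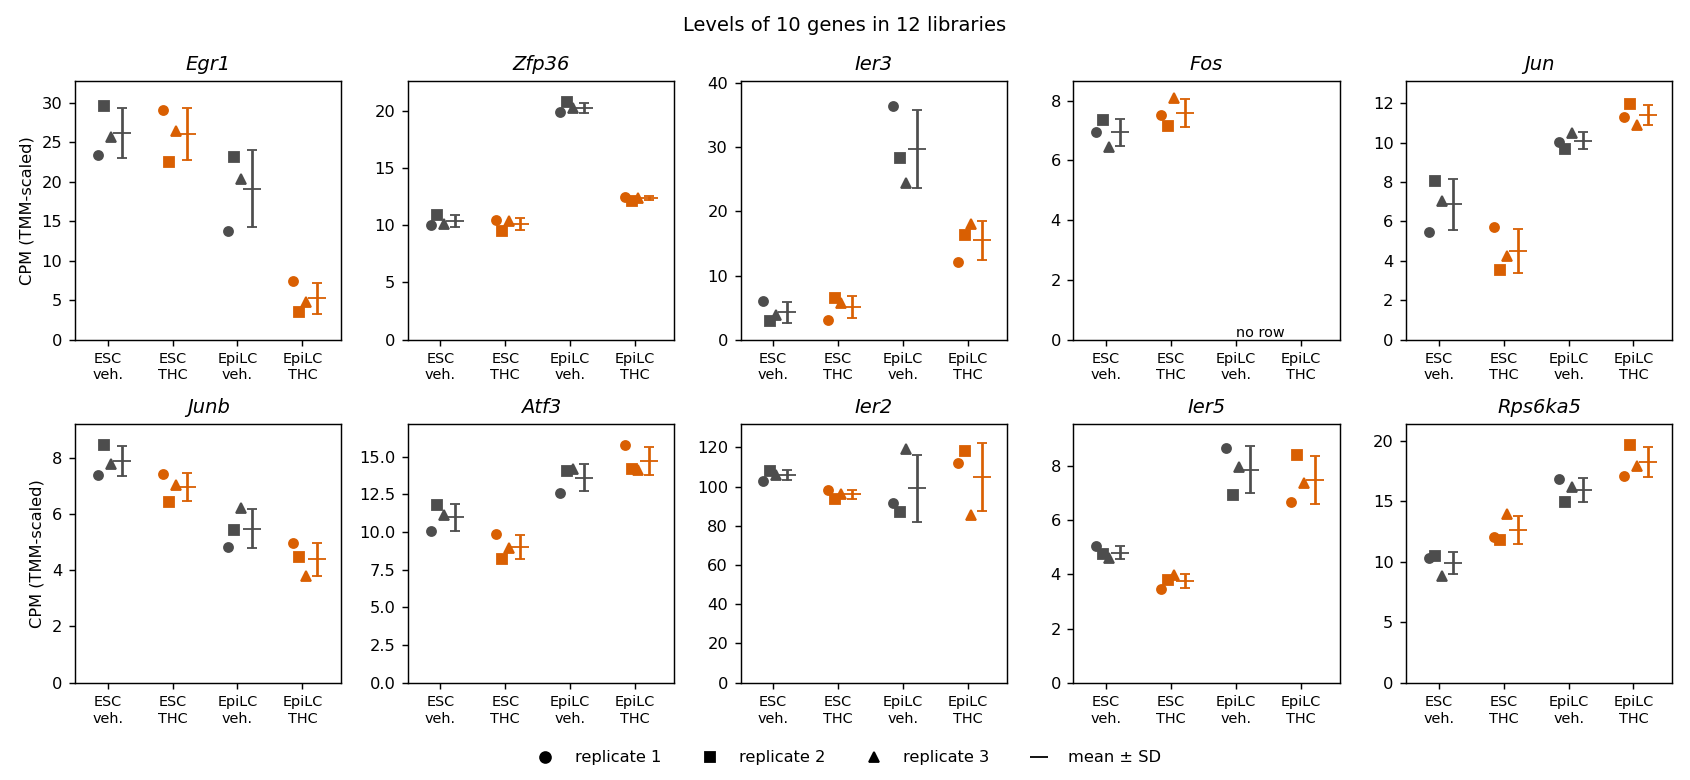
Level of each of the 10 genes (y axis, TMM-scaled CPM, from 0) in the 4 groups of 3 libraries; symbols give the replicate number, and the bar is the mean ± SD. Exposed and vehicle EpiLCs are separate for Egr1, Zfp36 and Ier3 (lower) and for Jun and Rps6ka5 (higher), and exposed and vehicle ESCs for Atf3, Ier2 and Ier5 (lower) and Rps6ka5 (higher).

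Fos, Jun and Junb encode subunits of AP-1. Fos, measured in ESCs only, had 6.97, 7.37 and 6.46 CPM with the vehicle and 7.54, 7.16 and 8.09 CPM with Δ9-THC. The groups overlapped, and the log2(fold-change) was 0.13 (SE 0.078; edgeR, adjusted p = 0.319). Jun had 10.03, 9.68 and 10.5 CPM in vehicle EpiLCs and 11.3, 11.96 and 10.9 CPM in exposed EpiLCs. Every exposed EpiLC library was higher than every vehicle library, by a log2(fold-change) of 0.18 (SE 0.077).

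In ESCs, Jun had 5.48, 8.03 and 7.06 CPM with the vehicle and 5.70, 3.55 and 4.24 CPM with Δ9-THC. The vehicle library of replicate 1 lay below the exposed one and the other 2 numbers went the other way, so the groups overlapped. The log2(fold-change) of -0.62 (SE 0.21; edgeR, adjusted p = 0.112) was the lowest of the 10 genes in ESCs, and 66 of 13104 genes had one as low or lower. The exons of Jun share 7.28% of their length with the antisense gene Junos. Counting without strand cannot assign reads that lie in this shared stretch to 1 of the 2 genes.

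Junb had 7.37, 8.43 and 7.77 CPM in vehicle ESCs and 7.41, 6.42 and 7.04 CPM in exposed ESCs, and the groups overlapped by replicate 1. Its log2(fold-change) was -0.18 (SE 0.082; edgeR, adjusted p = 0.212). In EpiLCs, Junb had 4.81, 5.41 and 6.20 CPM with the vehicle and 4.95, 4.45 and 3.78 CPM with Δ9-THC. These groups overlapped through replicate 1 as well, with a log2(fold-change) of -0.31 (SE 0.14). Junb shares 7.52% of its exonic length with Prdx2.

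Atf3, a stress-induced member of the ATF/CREB family, had 10.05, 11.8 and 11.1 CPM in vehicle ESCs and 9.84, 8.23 and 8.93 CPM in exposed ESCs. The exposed libraries were all lower, the nearest libraries of the groups being those of replicate 1, and the log2(fold-change) was -0.29 (SE 0.091; edgeR, adjusted p = 0.0975). In EpiLCs it had 12.6, 14.05 and 14.2 CPM with the vehicle and 15.8, 14.2 and 14.1 CPM with Δ9-THC. The groups overlapped, with a log2(fold-change) of 0.11 (SE 0.085).

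The genes of the Ier2 and Ier5 pair, which encode related proteins, were lower in exposed ESCs without passing the test. Ier2 had 103, 108 and 106 CPM with the vehicle and 98.3, 93.7 and 96.4 CPM with Δ9-THC, and its log2(fold-change) was -0.14 (SE 0.033; edgeR, adjusted p = 0.0542). Ier5 had 5.05, 4.74 and 4.59 CPM with the vehicle and 3.48, 3.81 and 3.98 CPM with Δ9-THC, and its log2(fold-change) was -0.35 (SE 0.083; edgeR, adjusted p = 0.0537). Neither gene's groups overlapped in ESCs. With offsets that take a smooth trend of GC content and length out of each library, the value of Ier2 became 0.0052 (SE 0.037) and that of Junb 0.0083 (SE 0.090), while Ier5 kept -0.32 (SE 0.087), Atf3 -0.26 (SE 0.084) and Jun -0.54 (SE 0.21). Ier2 and Junb have the highest exonic GC content of the 10 genes, at 60.9% and 62.6%.

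In EpiLCs, Ier2 had 91.4, 87.1 and 119 CPM with the vehicle and 112, 118 and 85.5 CPM with Δ9-THC. Replicates 1 and 2 were higher with Δ9-THC and replicate 3 was lower. The log2(fold-change) was 0.087 (SE 0.16), and it was -0.015 without the exposed library of replicate 2. Ier5 had 8.69, 6.95 and 7.97 CPM with the vehicle and 6.66, 8.42 and 7.39 CPM with Δ9-THC. The groups overlapped, and a log2(fold-change) of -0.070 (SE 0.13) became 0.010 without the vehicle library of replicate 1.

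Rps6ka5 (ENSMUSG00000021180) had 10.3, 10.5 and 8.83 CPM in vehicle ESCs and 12.02, 11.8 and 13.96 CPM in exposed ESCs. Every exposed library was higher than every vehicle library. The means of 9.88 ± 0.912 and 12.6 ± 1.17 CPM differed 1.27-fold, a log2(fold-change) of 0.35 (SE 0.095). In EpiLCs it had 16.8, 14.9 and 16.2 CPM with the vehicle and 17.1, 19.6 and 17.9 CPM with Δ9-THC, again with no overlap, and a log2(fold-change) of 0.19 (SE 0.083). Rps6ka5 has the lowest exonic GC content of the 10 genes, 42.7%. With the same offsets, its log2(fold-change) was 0.26 (SE 0.070) in ESCs and 0.024 (SE 0.10) in EpiLCs.

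**Figure D4:**
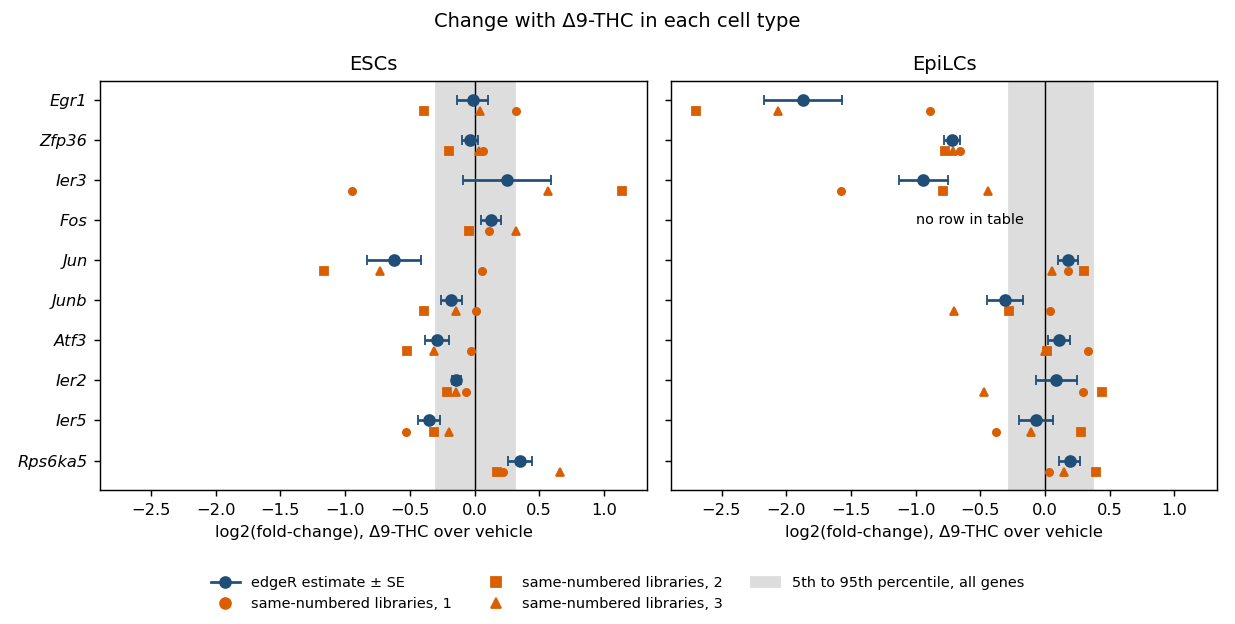
Log2(fold-change) of each gene, Δ9-THC over vehicle, in ESCs and EpiLCs; blue points are edgeR estimates ± SE, orange symbols the difference between libraries with the same replicate number, and the grey band runs from the 5th to the 95th percentile of all genes (-0.30 to 0.31 in ESCs, -0.28 to 0.37 in EpiLCs). Egr1, Ier3 and Zfp36 lie far below the band in EpiLCs and within it in ESCs.

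None of the 10 genes passed the adjusted threshold of 0.05 in ESCs with edgeR, where 6.91% of the 13104 genes did (906 genes). At an unadjusted p under 0.05 there were 5 of 10, beside 28.7% of all genes. With DESeq2, 0 of the 7 that received an adjusted p passed, beside 7.68% of the genes that received one. In ESCs the groups did not overlap for 4 of the 10 genes, beside 32.6% of all genes. Rps6ka5 is among those 5 and those 4. Its ESC value had served to choose it, so these counts partly describe the choice. The 906 calls of ESCs were reduced to 0 or 1 when any 1 library was left out, to 5 with the replicate number as a block and to 2 with the offsets.

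In EpiLCs, edgeR called 0 of the 9 genes and 0% of the 13717 genes. At an unadjusted p under 0.05 there were 3 of 9 and 15.1% of all genes, and DESeq2 called the 3 genes Egr1, Zfp36 and Ier3 lower, beside 0.146% of all genes. DESeq2 called 71 genes in either direction. In a fit of all 12 libraries on shared genes, Egr1 and Zfp36 were called lower, beside 1.28% of all genes. The groups did not overlap for 5 of 9 genes in EpiLCs, beside 21.8% of all genes. The EpiLC values had served to choose the genes, so these counts describe the choice.

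Whether the response differed between ESCs and EpiLCs was fitted as an interaction over the 12410 genes of both tables. It includes the EpiLC difference that served to choose Egr1 and Zfp36, and is given as a description. Zfp36 had a difference, EpiLC minus ESC, of -0.67 on the log2 scale (SE 0.095), and it was among the 4 genes called, 0.0322% of all (edgeR, adjusted p = 0.0429). The call was lost without any 1 of the 12 libraries, where the adjusted p ran from 0.0805 to 0.139, and with the replicate number as a block (adjusted p = 0.999). Egr1 had a difference of -1.84 (SE 0.32; edgeR, adjusted p = 0.0526) and was not called, by a narrow margin. Over the alternatives with edgeR and DESeq2, its adjusted p ran from 2.89e-05 to 0.999. A call of Zfp36 and not of Egr1 does not show that these 2 genes differ. Ier3 had a difference of -1.18 (SE 0.40; edgeR, adjusted p = 0.225) and was not called. Jun (0.81, SE 0.22) and Atf3 (0.42, SE 0.13) had differences of the other sign, with lower values in exposed ESCs and higher ones in exposed EpiLCs, also without a call.

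The other genes of the pathway are given as lists, whose counts stand beside those of all genes. In ESCs, edgeR called 6.91% of all genes, DESeq2 called 7.68%, and 28.7% had an unadjusted p under 0.05 in edgeR, and in EpiLCs 15.1% had one. Of 44 further immediate-early genes, 36 were tested in ESCs, where edgeR called 1 higher and 1 lower, 10 had an unadjusted p under 0.05, and DESeq2 called 4 of 31. Ccn2, a secreted matricellular protein, rose by a log2(fold-change) of 0.26 (SE 0.054; edgeR, adjusted p = 0.0449), from 27.4 to 32.7 CPM, and Ier5l, a relative of Ier5, fell from 14.9 to 11.6 CPM, a log2(fold-change) of -0.36 (SE 0.046; edgeR, adjusted p = 0.0283). Both calls were lost with the replicate block, with GC and length offsets, with any 1 library left out and in the fit of 12 libraries. The median log2(fold-change) of the list was -0.037 in ESCs, beside 0.0041 for all genes. In EpiLCs edgeR and DESeq2 called 0 of 37, with 7 at an unadjusted p under 0.05. The fit of 12 libraries called 1 of 35 there (Arc, lower), beside 411 of all 12410 genes in either direction. Their EpiLC median was 0.050, beside 0.0030 for all genes. The highest per length in vehicle EpiLCs were Mcl1, Jund and Dusp1. Dusp1, a phosphatase of p38 and ERK, had 98.4 CPM with the vehicle and 87.0 CPM with Δ9-THC in EpiLCs (log2(fold-change) -0.18, SE 0.082).

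Of the genes that report ERK output, 11 were tested in ESCs and 12 in EpiLCs, and edgeR and DESeq2 called 0, with 3 of 11 and 1 of 12 at an unadjusted p under 0.05. Their log2(fold-change) values ran from -0.26 to 0.20 in ESCs and from -0.28 to 0.26 in EpiLCs, with medians of 0.039 and 0.043. Spry2 and Dusp4, which encode feedback inhibitors of the pathway and are named after their values were seen, were higher without overlap in exposed EpiLCs, from 43.2 to 51.7 CPM (log2(fold-change) 0.26, SE 0.053) and from 19.01 to 22.5 CPM (0.25, SE 0.11). They were the only 2 of the 12 without overlap, beside 21.8% of all genes in either direction. Of the 12, 8 had a log2(fold-change) above 0 and 4 below, beside 50.7% of all genes above 0. Dusp6 had 119 CPM in vehicle EpiLCs and 118 CPM in exposed EpiLCs, a log2(fold-change) of -0.011 (SE 0.14). The ETS factor genes Etv5 and Etv4 had 0.047 (SE 0.12) and 0.040 (SE 0.071) in EpiLCs.

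Among 14 kinases of the ERK and p38 cascades, edgeR called 1 lower in ESCs, where 6 had an unadjusted p under 0.05, and 0 in EpiLCs, where DESeq2 called 0 too and 2 had an unadjusted p under 0.05. The 1 called was Map2k2, which encodes MEK2, named after its value was seen, at 77.9 CPM with the vehicle and 67.2 CPM with Δ9-THC (log2(fold-change) -0.21, SE 0.042; edgeR, adjusted p = 0.0399), a call lost in the same 4 ways. Mapk3, which encodes ERK1, was lower without overlap in both cell types, by -0.11 (SE 0.036) and -0.18 (SE 0.055), and was not called. Map2k1, which encodes MEK1, had 0.065 (SE 0.061) in ESCs and -0.031 (SE 0.12) in EpiLCs.

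Of the RSK and MSK family, to which Rps6ka5 belongs, 5 of 6 genes had values and Rps6ka4, which encodes MSK2, has no row in either table. Rps6ka2 fell in ESCs from 90.1 to 77.5 CPM (log2(fold-change) -0.22, SE 0.040; edgeR, adjusted p = 0.0368), and this call too was lost with the replicate block, with the offsets, with any 1 library left out and in the fit of 12 libraries. All 5 genes had an unadjusted p under 0.05 in ESCs, beside 28.7% of all genes, but 3 were higher and 2 lower. Rps6ka5 is 1 of the 5, and its ESC value had served to choose it. DESeq2 called 2 there, Rps6ka2 and Rps6ka6, beside 7.68% of all genes that received an adjusted p. In EpiLCs Rps6ka2 had 56.8 and 55.8 CPM. There edgeR and DESeq2 called 0 of the family, with 0 at an unadjusted p under 0.05. Rps6ka6 had 0.26 (SE 0.082) in ESCs and 0.28 (SE 0.20) in EpiLCs, Rps6ka3 0.10 and 0.17, and Rps6ka1 -0.11 and -0.15, and edgeR called none of these 3 in either cell type.

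The partners of Egr1 and the relatives of Zfp36 were not called by edgeR or DESeq2 within either cell type. In the fit of 12 libraries 1 of them was, Nab1 in EpiLCs, beside 411 of all 12410 genes in either direction. Egr2, Egr3 and Egr4 have no row in either table. Nab1, a corepressor that binds EGR proteins, had 8.24 CPM in vehicle EpiLCs and 10.1 CPM in exposed EpiLCs without overlap, a log2(fold-change) of 0.30 (SE 0.068). The other corepressor gene, Nab2, had 1.37 and 1.09 CPM, a log2(fold-change) of -0.33 (SE 0.18). Zfp36l1, a paralog of Zfp36, had 23.5 and 26.3 CPM in EpiLCs (0.16, SE 0.15), and Zfp36l2 had 44.9 and 41.5 CPM (-0.11, SE 0.16). Zfp36l3 had 1.16 CPM in both groups of ESCs.

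The AP-1 family had 8 genes with values in ESCs and 9 in EpiLCs. EdgeR and DESeq2 called 0, and 3 in ESCs and 0 in EpiLCs had an unadjusted p under 0.05. Besides Fos, Jun, Junb and Atf3, Jund had log2(fold-change) values of -0.23 (SE 0.18) in ESCs and -0.13 (SE 0.21) in EpiLCs, Atf2 0.16 (SE 0.047) and 0.052 (SE 0.12), Atf7 -0.017 and -0.019, and Jdp2 -0.072 and -0.043. Fosl2 (0.041) and Batf3 (-0.031) had values in EpiLCs only. Fosb, Fosl1, Batf and Batf2 have no row. Of 14 SRF, TCF, CREB and cofactor genes, edgeR and DESeq2 called 0 in either cell type, with 5 at an unadjusted p under 0.05 in ESCs and 1 in EpiLCs. Srf had -0.23 (SE 0.072) in ESCs and -0.27 (SE 0.15) in EpiLCs, Atf1 0.073 and -0.011, and the acetyltransferase gene Ep300 0.081 and 0.26.

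Heat-shock genes, which like immediate-early genes can respond to the handling of cells, had a log2(fold-change) below 0 in EpiLCs for 9 of 11 genes tested, beside 49.3% of all genes, with a median of -0.11. The libraries did not overlap for 4 lower and 1 higher, beside 21.8% of all genes in either direction. EdgeR and DESeq2 called 0, and 3 had an unadjusted p under 0.05. Together they held 12925 to 14037 CPM per vehicle library and 12385 to 13469 CPM per exposed library, which overlap. In ESCs the median over 10 genes was 0.079 and edgeR called 1 lower, Hspb1, a call lost in the same 4 ways, while DESeq2 called 2 of 8, Hspb1 and Hspd1, both named after their values were seen. Their part in the values of Egr1, Zfp36 and Ier3 was not tested.

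**Figure D5:**
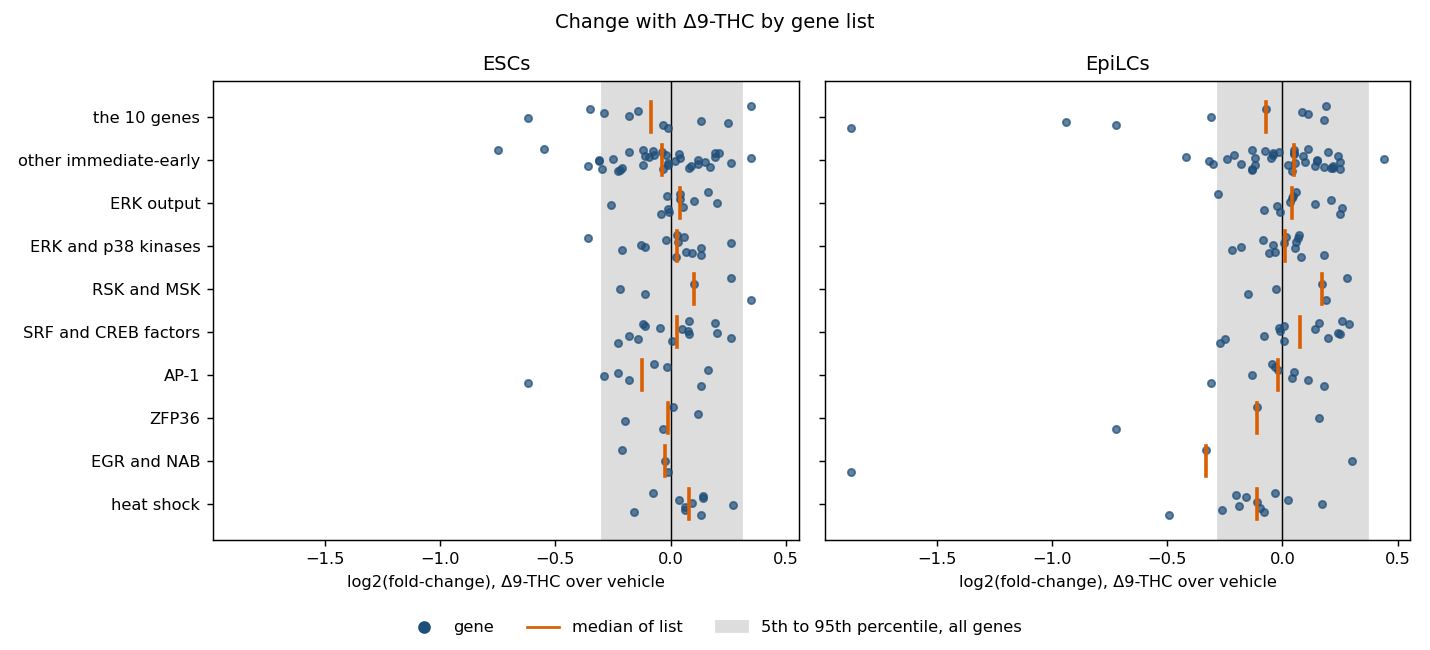
Log2(fold-change), Δ9-THC over vehicle, of each tested gene (points) by list in ESCs and EpiLCs, with the list's median (orange line) and the range from the 5th to the 95th percentile of all genes (grey). The 10 genes appear in their family lists too, and 9 of them have a value in EpiLCs. The medians lie between -0.33 (EGR and NAB genes in EpiLCs, 3 genes) and 0.17 (RSK and MSK genes in EpiLCs).

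The genes most like Egr1 over the 6 EpiLC libraries, among 12218 with a mean of at least 50 counts, were Arc, Lysmd2, Ahsa1, Noc2l and Adh5, with Pearson's r of 0.995 to 0.997 on log2 CPM. Arc, itself an immediate-early gene of neurons, had 12.3 CPM in vehicle EpiLCs and 9.19 CPM in exposed EpiLCs. Zfp36 stood at place 277 with an r of 0.948, Junb at place 1101 with 0.809 and Ier3 at place 1747 with 0.691, while Jun had an r of -0.871 and Rps6ka5 an r of -0.943. For Rps6ka5 in ESCs, the most alike of 11735 genes were Pigm, Gmfb, Taok1, Syncrip and Atp2c1, and Fos had an r of 0.935 at place 709. An r of at least 0.95 was reached by 262 genes for Egr1 and by 554 for Rps6ka5. The 6 libraries share the adjustment described above, and these values are descriptions.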

How the data were processed

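RNA-seq libraries of ESCs and EpiLCs were analysed, 12 in all, and the 6 PGCLC samples were not analysed here. The authors made poly(A) libraries with either of 2 kits, aligned reads with STAR, counted uniquely mapped reads over genes without strand (HTSeq, union mode), removed genes with low counts and adjusted each cell type with ComBat-seq. What the authors deposited are the adjusted counts, whole numbers per gene and library, not scaled for library size. The kit of each library and the batches are not given in the sources used here, and the genome is named as mm10 and as GRCm39. Per the labels, bcl2fastq 2.19.1.403 was also used. Every column was matched to its library by its label, and 0 were left over.

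Counts were scaled with TMM, and Δ9-THC was compared with the vehicle within a cell type by the quasi-likelihood test of edgeR 4.0.16 in R 4.3.3 for genes whose counts summed to over 10, with Benjamini-Hochberg adjustment over all genes and a threshold of 0.05. SEs were derived from the F statistics. The cell types were compared as an interaction in a model of 4 groups. The labels call the replicates biological. Alternatives were RLE factors, no filter, 10 counts in every library, a replicate block, offsets for GC content and length (splines with 5 degrees of freedom), DESeq2 1.42.0, a fit of 12 libraries and each library left out. The fits were also run on simulated counts. The simulated libraries were drawn independently, unlike the adjusted ones, so this run does not test the fits under the dependence described above.

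Names, positions, exonic length, GC content and transcripts came from GENCODE M21 (GRCm38) by gene identifier, and promoters from RefSeq (GRCm38.p6). Positions describe genes and did not enter the counts. The 10 genes, the lists and the motifs were chosen with earlier results of these data known. Named besides the 10 genes were all measured genes of 4 families (RSK and MSK, EGR and NAB, AP-1, ZFP36). From each other list, the 3 with the highest level per kb in vehicle EpiLCs were named, with those called at a log2(fold-change) over 0.25 in size. Of these, 1 gene is not reported here. The 5 genes most alike used log2 CPM with a prior count of 2. Depth was 23427551 to 32096698 counts per library. The spread between adjusted libraries did not follow the counts. Nab1 in vehicle EpiLCs had 240, 262 and 186 counts and 8.24, 8.23 and 8.23 CPM, with an SD of 0.00572 CPM.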

Additional observations from a re-analysis of the deposited data

Results flagged for a closer look

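The interaction between exposure and cell type called Zfp36. Its log2(fold-change) was -0.034 in ESCs and -0.72 in EpiLCs, and the interaction, EpiLC minus ESC, was -0.67 (SE 0.095; edgeR, Benjamini-Hochberg adjusted p = 0.0429 over 12410 genes). Zfp36 was lower in exposed EpiLCs in all 3 replicate numbers, and in 1 of 3 in ESCs. Over the alternatives tried, the difference lay between -0.71 and -0.64 and the adjusted p between 0.000483 and 0.999. The call was lost with a replicate block (0.999) and with any 1 of the 12 libraries left out (0.0805 to 0.139). Zfp36 had been chosen for its EpiLC values, so the test does not stand apart from the choice. The other 3 genes called, Myo6, Cul9 and Dzip1, were named after their values were seen, with differences of 0.85, 1.05 and 0.69.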

How the results depend on the processing

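The log2(fold-change) values of Egr1, Zfp36 and Ier3 in EpiLCs kept their sign under every alternative, from -2.20 to -1.66, -0.74 to -0.66 and -1.07 to -0.77. In ESCs, edgeR called 906 genes, and it called 5 with a replicate block, 2 with GC and length offsets, 3 with both, 31 in the fit of 12 libraries and 0 to 1 with a library left out. In EpiLCs it called 0 genes, and DESeq2 called 71 and the fit of 12 libraries 411. The interaction called 4 genes, 0 with the replicate block, 133 with DESeq2 and 0 with any library left out. The cause of these differences was not tested. The replicate block rests on the numbers only, and the labels do not say that same-numbered libraries are pairs. The deviations of same-numbered libraries correlated between -0.987 and -0.977, so these libraries were not independent. The main fits left the number out and do not account for this dependence. With a library left out, Egr1 in ESCs ran from -0.099 to 0.087, Zfp36 from -0.059 to 0.011, and in EpiLCs Ier2 from -0.015 to 0.24 and Ier5 from -0.17 to 0.010. In ESCs, the value of Egr1 became 0.099 with offsets, 0.099 with offsets and replicate block, and 0.084 or 0.087 without the vehicle or exposed library of replicate 2. That of Zfp36 became 0.027, 0.028, 0.0069 and 0.011 in the same settings. With offsets, without and with the block, Junb had 0.0083 and 0.0097 and Ier2 0.0052 and 0.0054. In EpiLCs, Ier2 had -0.015 without exposed replicate 2 and Ier5 0.010 without vehicle replicate 1. Of the other values, 127 in ESCs, 119 in EpiLCs and 130 of the interaction kept their sign and their side of the threshold. With no filter, the genes tested were the same. All ratios between the cell types kept their direction with TMM over 12 libraries. With CPM of the table totals and no TMM factors, groups did not overlap for 6 members in ESCs and 6 in EpiLCs. The share of all genes in that setting is not given here, so these 2 counts are not a result about the members. Among the 10 genes, Ier5 in exposed ESCs had the lowest mean count, 97.3 per library.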
